A study of Mus musculus with 14 samples.

Results

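The 10 genes described here make and sense prostaglandins: the cyclooxygenases Ptgs1 and Ptgs2, the terminal synthases Ptgds, Hpgds, Ptges and Ptgis, the prostaglandin E2 receptors Ptger1, Ptger2 and Ptger4, and the catabolic enzyme Hpgd. They were selected by symbol from a table of 35275 genes, and each symbol was found in 1 row. The family was chosen because Ptgds had the largest rise with FAK re-expression, so the values of FAK-WT and FAK KO cells chose it and are given as a description without a test.

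RNA was measured in tumorspheres grown for 5 days without attachment, in 5 lines and 14 samples. KMF cells (3 samples) are mouse ovarian tumor cells derived from the C57Bl6 line ID8 by passage through mice. FAK KO cells (3 samples) are 1 clone, KT13, in which CRISPR editing of Ptk2 removed the focal adhesion kinase FAK. Each other line was made from KT13 and shares its knockout background and its origin from 1 cell. FAK-WT cells (3 samples) re-express GFP-tagged FAK and FAK-R454 cells (2 samples) a GFP-tagged FAK without kinase activity, both from lentiviral vectors. β-catenin ΔGSK cells (3 samples) stay FAK-null and carry a retroviral β-catenin that lacks the sites phosphorylated by GSK3, with GFP expressed separately. Each of these lines then went through drug selection and flow enrichment. Every line derived from KT13 was compared with its own parent clone, which lacks these vectors and the selection and sorting that followed. KMF and FAK KO cells, in contrast, differ by the knockout and by cloning, which cannot be told apart. The lines derived from KT13 differ from KMF cells by these and by vector, selection and sorting, which cannot be told apart either. The methods speak of independent RNA samples of KMF cells, taken at various passages, and of replicate RNA samples of KT13 and its derived lines. The p-values therefore measure the spread between these samples, which may be technical.

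Prostaglandins are made from arachidonic acid, which phospholipases A2 release from membranes. The cyclooxygenases turn it into prostaglandin H2, and terminal synthases turn that into prostaglandin D2 (Ptgds, Hpgds), prostaglandin E2 (Ptges) or prostacyclin (Ptgis). The receptors of prostaglandin E2 signal through calcium (Ptger1) or through cyclic AMP (Ptger2, Ptger4). Lipocalin-type Ptgds also binds small lipophilic molecules outside the cell.

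Libraries held 25390558 to 35289859 fragments on genes (median 28720224). As a check of the labels, Ptk2 mRNA was 19.0 ± 1.45 FPKM (fragments scaled to gene length and library depth) in FAK KO cells, 43.4 ± 1.76 in FAK-WT cells (SD, n = 3 each) and 62.4 ± 4.42 in FAK-R454 cells (SD, n = 2). An edited transcript can still be counted, so this value checks the re-expression and not the knockout. Ctnnb1 mRNA, the check of the β-catenin line, was 214 ± 8.24 FPKM in β-catenin ΔGSK, 145 ± 4.63 in FAK KO and 200 ± 6.12 in KMF cells (SD, n = 3 each). That was 1.48-fold the FAK KO mean but only 1.07-fold the KMF mean. Epithelial and mesothelial markers were abundant, with Krt8, Krt18, Krt19, Wt1 and Msln at line means of at least 47.8 FPKM. Of the other 4 markers of that list, Upk1b had line means of 10.1 to 16.7 and Upk3b of 4.03 to 31.6, whereas line means of Lrrn4 were 0.126 to 1.14 and Krt7 was at or below 0.420 FPKM in every sample. Of 8 measured leukocyte markers, Cd68 reached 12.3 FPKM in a sample, Kit 0.390 and the other 6 at most 0.236.

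The order of levels put prostacyclin synthase first. In every line the mean FPKM, which is per length and so comparable between genes, was highest for Ptgis, from 154 in FAK KO to 242 in FAK-WT cells. Ptgs1 followed in each of the 5 lines with means of 48.3 to 80.2. Ptgs2 (16.9 to 30.6) and Ptger1 (17.5 to 24.2) lay below it, Ptges reached 1.65 and Ptger4 1.32. Ptger2 stayed at or below 0.270 FPKM in each sample, Hpgds at or below 0.0309 and Hpgd at or below 0.0223. Ptger1 lay above Ptgs2 in some lines and below it in others, and Ptger4 lay above Ptges in FAK-R454 cells only. Ptgds ranged from a mean of 0.125 FPKM in β-catenin ΔGSK cells to 62.2 in FAK-WT cells.

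**Figure D1:**
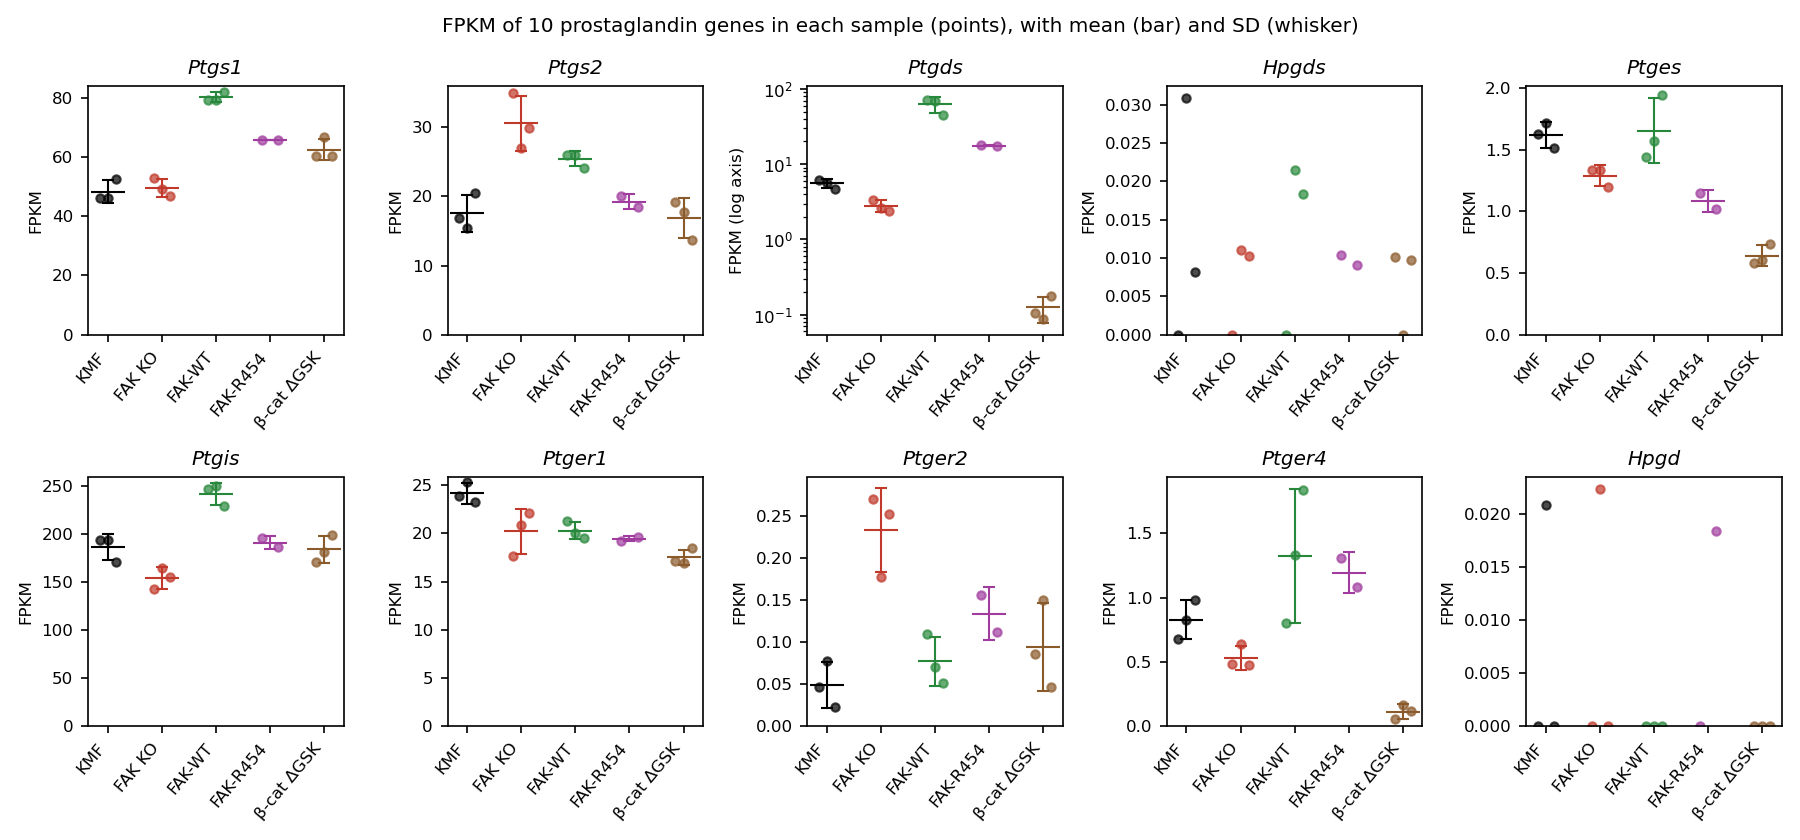
FPKM of the 10 genes in each sample, with 1 panel per gene and lines on the x axis; points are samples, bars are means and whiskers SD (n = 3, FAK-R454 n = 2; none drawn for Hpgds and Hpgd, at no more than 3 fragments). The y axis starts at 0 except for Ptgds, whose axis is logarithmic and whose 5 lines do not overlap.

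Ptgds was the most variable member. It lies on the minus strand of chromosome 2 (chr2:25466709-25470046, GRCm38; ENSMUSG00000015090), and no other annotated gene overlaps it. Its FPKM was 72.1, 69.7 and 45.0 in FAK-WT, 17.7 and 17.4 in FAK-R454, 6.20, 5.70 and 4.72 in KMF, 3.35, 2.63 and 2.40 in FAK KO and 0.106, 0.0890 and 0.179 in β-catenin ΔGSK samples. The lines fell in the order FAK-WT, FAK-R454, KMF, FAK KO, β-catenin ΔGSK, and no line overlapped its neighbor in that order. In bulk RNA, fewer cells that carry a transcript and less of it per cell cannot be told apart.

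The change from FAK KO to FAK-WT cells, which chose the family, was 22.3-fold in mean FPKM, or 4.41 on the log2(FPKM + 0.1) scale used for all log2 fold changes below. FAK-R454 cells stood 6.29-fold above FAK KO cells, and FAK-WT stood 3.54-fold above FAK-R454 cells. These comparisons share samples with the contrast that chose Ptgds, so no p is given for it there. Among the samples outside that contrast, Ptgds was higher in FAK-R454 than in KMF cells by 1.66 (SE 0.11, limma, Benjamini-Hochberg adjusted p = 0.000131). It was lower in β-catenin ΔGSK than in KMF cells (log2 fold change -4.66, SE 0.19, limma adjusted p = 2.17e-07) and than in FAK-R454 cells (-6.32, SE 0.20, limma adjusted p = 3.07e-07).

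The β-catenin ΔGSK level rested on few fragments. The 3 samples held 4, 3 and 7 Ptgds fragments, 14 in all, with an exact 95% Poisson interval of 7.65 to 23.5 that covers counting error only. KMF samples held 211 to 239 and FAK-WT samples 1874 to 2852. Mean FPKM was 44.4 times as high in KMF and 22.4 times as high in FAK KO as in β-catenin ΔGSK cells, and since the latter lies near the added 0.1 the log2 fold changes understate these ratios. Ptgds passed the filter against β-catenin ΔGSK cells through the other line, and without the filter its limma adjusted p was 7.90e-06 against KMF and 4.02e-05 against FAK-R454 cells. With 1 added in place of 0.1, Ptgds still passed the call in each of its 3 tested comparisons.

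Ptgds is made by several cell types, so marker sums were set beside it. Summed FPKM of 8 measured leukocyte markers was 7.14 to 12.6 in FAK-WT, 4.47 to 4.60 in FAK-R454, 3.02 to 3.83 in KMF, 3.17 to 3.44 in FAK KO and 1.48 to 2.25 in β-catenin ΔGSK samples. FAK-WT samples were highest and β-catenin ΔGSK samples lowest, as for Ptgds, while KMF and FAK KO samples overlapped. Cd68, a lysosomal protein, made up most of the sum, with line means of 1.32 to 8.62. Kit, a receptor of mast cells and other cells, averaged 0.299 FPKM in FAK-WT, 0.179 in FAK-R454, 0.0910 in KMF, 0.0858 in FAK KO and 0.291 in β-catenin ΔGSK cells. Of the rest, Cd79a reached 0.236 FPKM in a sample, Lyz2 0.109, Csf1r 0.0525, Cpa3 0.0462 and Ptprc 0.00759, and Cd3e was at 0 in every sample. Summed FPKM of 5 fibroblast markers was 123 to 145 in FAK-WT, 122 to 132 in FAK-R454, 41.8 to 49.8 in KMF, 90.0 to 127 in FAK KO and 30.8 to 45.1 in β-catenin ΔGSK samples, with Dcn the largest term and Thy1 at or below 0.0198 in every sample. Of its other markers, Col1a1 averaged 9.12 in FAK-WT, 10.1 in FAK-R454, 2.46 in KMF, 1.33 in FAK KO and 0.194 in β-catenin ΔGSK cells, and Pdgfra 10.3, 8.87, 9.06, 3.03 and 0.815 in the same order, while Pdgfrb stayed at or below 0.0556 in every sample. The 9 mesothelial and ovarian epithelial markers summed to 1577 to 1821 in FAK-WT samples and to 1080 to 1411 in the samples of the other lines. The 4 endothelial markers, nearly all Tek, summed to 29.6 to 30.0 in KMF, 17.1 to 19.2 in FAK KO, FAK-WT and FAK-R454, and 6.55 to 7.42 in β-catenin ΔGSK samples. The part of these lists in the Ptgds values was not tested.

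The 5 genes whose log2 levels followed Ptgds most closely over the 14 samples, of 12256 genes, were Tspan32 (Pearson r = 0.982), Akp-ps1 (0.979), BC029214 (0.976), Ppl (0.976) and Il18rap (0.974). The samples share lines, so these values describe likeness and carry no p. Tspan32, a tetraspanin, averaged 25.7 FPKM in FAK-WT, 23.0 in FAK-R454, 11.1 in KMF, 10.6 in FAK KO and 3.55 in β-catenin ΔGSK cells. Ppl, the desmosome-associated periplakin, ran from 8.97 in β-catenin ΔGSK to 35.1 in FAK-WT cells. Both genes spanned less between lines than Ptgds did.

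Hpgds, the hematopoietic prostaglandin D synthase on chromosome 6, was not detectable above a few fragments. It had 0 to 3 fragments per sample and was at 0 in 4 samples, where 0 fragments allow up to 0.0287 to 0.0340 FPKM. In β-catenin ΔGSK cells both prostaglandin D synthases were therefore near 0, whereas in the other lines only Ptgds was measured above a few fragments.

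Both cyclooxygenases were expressed, and they differed between lines in unlike ways. Ptgs1 (chromosome 2) was 79.1, 79.2 and 82.1 FPKM in FAK-WT, 65.8 and 65.8 in FAK-R454, 46.2, 46.0 and 52.6 in KMF, 52.7, 49.2 and 46.9 in FAK KO and 60.4, 66.7 and 60.4 in β-catenin ΔGSK samples. KMF and FAK KO samples overlapped, and every sample of the other 3 lines lay above both. Ptgs1 passed the adjusted p in FAK-R454 over FAK KO (log2 fold change 0.41, SE 0.07, limma adjusted p = 0.00601) and in β-catenin ΔGSK over FAK KO cells (0.33, SE 0.07, limma adjusted p = 0.00394). It also did so over KMF cells in FAK-WT (0.73, limma adjusted p = 0.000216), FAK-R454 (0.45, 0.00350) and β-catenin ΔGSK cells (0.37, 0.00346). In FAK-WT over FAK KO cells the difference was 0.69, given without a test.

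Ptgs2, the inducible cyclooxygenase (chromosome 1), was highest in FAK KO cells. Its FPKM was 34.9, 27.1 and 29.8 in FAK KO, 26.1, 26.1 and 24.2 in FAK-WT, 20.0 and 18.5 in FAK-R454, 16.8, 15.4 and 20.6 in KMF, and 19.2, 17.7 and 13.7 in β-catenin ΔGSK samples. Every FAK KO sample lay above every sample of the other lines, while FAK-R454, KMF and β-catenin ΔGSK samples overlapped. Relative to FAK KO cells Ptgs2 was lower in KMF (-0.80, SE 0.12, limma adjusted p = 0.000926), in β-catenin ΔGSK (-0.86, SE 0.14, adjusted p = 0.000760) and in FAK-R454 cells (-0.66, SE 0.11, adjusted p = 0.00494). In FAK-WT against FAK KO cells the difference was -0.26, given without a test. FAK-WT cells had more Ptgs2 than KMF cells (0.54, SE 0.11, limma adjusted p = 0.00583). No Ptgs2 difference reached a log2 fold change of 1. Without FAK-R454 replicate 2, which leaves 1 sample in that line, the FAK-R454 difference from FAK KO cells had a limma adjusted p of 0.0561, and for Ptgs1 that p was 0.0809 without FAK-R454 replicate 1 and 0.0711 without replicate 2.

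The ratio of Ptgs1 to Ptgs2 FPKM, computed within each sample, was lowest in FAK KO cells (1.63 ± 0.162, SD, n = 3; range 1.51 to 1.82). It was 3.16 ± 0.205 in FAK-WT, 3.42 ± 0.193 in FAK-R454 (n = 2), 2.77 ± 0.218 in KMF and 3.77 ± 0.635 in β-catenin ΔGSK cells. No sample of another line was below 2.56. This ratio was computed after the values of both genes were seen and was not tested.

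Ptgis, which makes prostacyclin (chromosome 2), was 247, 250 and 229 FPKM in FAK-WT, 196 and 186 in FAK-R454, 194, 194 and 171 in KMF, 142, 165 and 156 in FAK KO and 171, 181 and 199 in β-catenin ΔGSK samples. FAK-WT samples lay above, and FAK KO samples below, all others. FAK-WT cells had more Ptgis than KMF cells (log2 fold change 0.38, SE 0.07, limma adjusted p = 0.00595), and the untested difference from FAK KO cells was 0.65. Over FAK KO cells the difference was 0.27 in KMF (SE 0.08, limma adjusted p = 0.0209), 0.25 in β-catenin ΔGSK (SE 0.08, adjusted p = 0.0239) and 0.31 in FAK-R454 cells (SE 0.08, adjusted p = 0.0249). These last 3 did not withstand the loss of 1 sample. The limma adjusted p rose to 0.0616 to 0.0835 without KMF replicate 1 or 2 or FAK KO replicate 1 or 3, to 0.0587 to 0.0844 without FAK KO replicate 1 or 3 or β-catenin ΔGSK replicate 2 or 3, and to 0.0783 to 0.226 without FAK KO replicate 3 or either FAK-R454 sample, in that order.

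Ptges, the microsomal prostaglandin E synthase (chromosome 2), was low and was lowest in β-catenin ΔGSK cells. Its FPKM was 1.44, 1.57 and 1.95 in FAK-WT, 1.15 and 1.02 in FAK-R454, 1.62, 1.72 and 1.52 in KMF, 1.34, 1.34 and 1.20 in FAK KO and 0.580, 0.605 and 0.736 in β-catenin ΔGSK samples. The β-catenin ΔGSK samples lay below all others. Ptges fell in them relative to KMF cells by 1.22 (SE 0.15, limma adjusted p = 0.000163), past the fold threshold. Relative to FAK KO cells the difference was -0.91 (SE 0.17, limma adjusted p = 0.00166), short of that threshold. Ptges passed the filter in these comparisons only through the other line, where it is high. Without the filter the limma adjusted p was 0.00109 against KMF, 0.00589 against FAK KO and 0.0507 against FAK-R454 cells. FAK-R454 cells were also below KMF cells (-0.54, SE 0.13, limma adjusted p = 0.0157), but this p rose to between 0.0505 and 0.102 without KMF replicate 1 or either FAK-R454 sample. The difference of β-catenin ΔGSK from FAK-R454 cells (-0.68, SE 0.19, limma adjusted p = 0.0197) likewise rose to between 0.0528 and 0.116 without either FAK-R454 sample or β-catenin ΔGSK replicate 2.

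**Figure D2:**
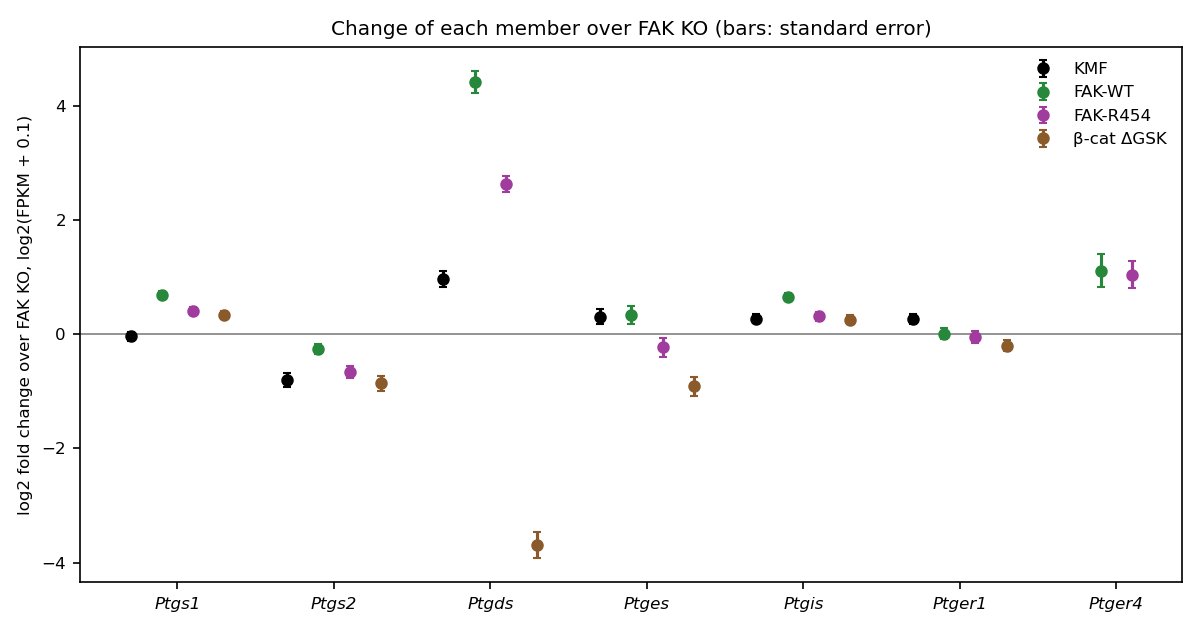
Log2 fold change over FAK KO cells, on log2(FPKM + 0.1), for the members that passed the FPKM filter; each point is 1 line and whiskers are the standard error. Ptgds spans from -3.69 in β-catenin ΔGSK to 4.41 in FAK-WT cells, and all other points drawn lie between -0.91 and 1.11. Ptger4 did not pass the filter for KMF and β-catenin ΔGSK cells and has no point there. Without the filter its log2 fold changes were 0.55 and -1.59.

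Ptger4 line means ranged from 0.113 to 1.32 FPKM. This gene on the minus strand of chromosome 15 (chr15:5206661-5244187, GRCm38) had 0.800, 1.33 and 1.84 FPKM in FAK-WT, 1.31 and 1.08 in FAK-R454, 0.675, 0.826 and 0.984 in KMF, 0.484, 0.641 and 0.474 in FAK KO and 0.056, 0.167 and 0.117 in β-catenin ΔGSK samples. FAK-WT and FAK-R454 samples overlapped, and β-catenin ΔGSK samples were far below the rest. It passed the filter of a mean above 1 FPKM only through the FAK-WT and FAK-R454 cells, where it is high, so its calls in the filtered test are not read as support. In the fit without that filter, over all genes, Ptger4 was 1.04 higher in FAK-R454 than in FAK KO cells (limma adjusted p = 0.0490), and the untested FAK-WT value was 1.11.

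The FAK-R454 difference did not hold in several settings of the filtered test, where its limma adjusted p was 0.0200. That p was 0.0552 without FAK KO replicate 3, 0.201 without FAK-R454 replicate 1 and 0.107 without FAK-R454 replicate 2, and without FAK KO replicate 1 the mean change fell below the fold threshold. With each chromosome centred on its median in every sample, which removes shifts that a chromosome's genes share, the Ptger4 difference was 0.88 (limma adjusted p = 0.0824). Ptger4 also shares 16.5% of its exonic bases with Ttc33 and Gm15937 on the other strand, in libraries that do not mark strand.

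The mean of Ptger4 was lowest in β-catenin ΔGSK cells. The fit without a filter gave log2 fold changes of -2.63 against FAK-R454 (limma adjusted p = 0.00174), -2.14 against KMF (0.000729) and -1.59 against FAK KO cells (0.00302). Mean FPKM was 10.5-fold lower than in FAK-R454 cells. The 3 β-catenin ΔGSK samples held 35 Ptger4 fragments in all, against 168 in FAK KO cells.

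Ptger2, the other receptor coupled to cyclic AMP (chromosome 14), stayed below the filter in every line. Its FPKM was 0.109, 0.071 and 0.052 in FAK-WT, 0.156 and 0.111 in FAK-R454, 0.047, 0.078 and 0.023 in KMF, 0.270, 0.177 and 0.252 in FAK KO and 0.086, 0.150 and 0.046 in β-catenin ΔGSK samples. FAK KO samples were above all others. The fit without a filter gave -1.16 for KMF (limma adjusted p = 0.00639), -0.80 for β-catenin ΔGSK (0.0440) and -0.51 for FAK-R454 against FAK KO cells (0.276). FAK KO samples held 17 to 30 Ptger2 fragments and KMF samples 3 to 8, so these levels are near the limit of the depth.

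Ptger1, on chromosome 8, is uncertain, because its fragments can include those of overlapping transcription. The library kit does not mark strand. Ptger1 FPKM was 21.3, 20.1 and 19.5 in FAK-WT, 19.3 and 19.6 in FAK-R454, 23.9, 25.4 and 23.2 in KMF, 17.6, 20.9 and 22.2 in FAK KO and 17.1, 17.0 and 18.4 in β-catenin ΔGSK samples. KMF samples were the highest, above all others.

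The values labelled Ptger1 passed the adjusted p below KMF cells in FAK-WT (-0.25, SE 0.06, limma adjusted p = 0.0132), FAK-R454 (-0.31, SE 0.06, adjusted p = 0.00655), and β-catenin ΔGSK cells (-0.46, SE 0.07, adjusted p = 0.000535), and in KMF above FAK KO cells (0.26, SE 0.09, adjusted p = 0.0391). The last of these was lost, with a limma adjusted p of 0.0534 to 0.124, without KMF replicate 1 or 2 or FAK KO replicate 1 or 2. The p for FAK-WT was 0.0533 without FAK-WT replicate 2, and that for FAK-R454 was 0.0662 or 0.0510 without its first or second sample. None reached a log2 fold change of 1.

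Hpgd, which inactivates prostaglandins (chromosome 8), had 1 fragment in 1 sample each of KMF, FAK KO and FAK-R454 cells and 0 fragments in the other 11 samples. A count of 0 there allows up to 0.0495 to 0.0687 FPKM. No difference in Hpgd was detectable at this depth.

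Member counts were read against all genes. A call required an adjusted p below 0.05, a log2 fold change of at least 1 in either direction and a mean above 1 FPKM in the higher line. Ptgds was not tested in comparisons with FAK KO or FAK-WT cells, so the counts of tested members there leave it out. Its mean FPKM was 22.4-fold lower in β-catenin ΔGSK than in FAK KO cells and 11.2-fold higher in FAK-WT than in KMF cells. In FAK-WT against FAK KO cells, 2 of the 7 members past the filter exceeded the fold, Ptgds and Ptger4, with 4.78% of all genes doing so; that contrast chose the family and nothing is read from it. In FAK-R454 against FAK KO cells, limma called 1 of 6 tested members (Ptger4, which passed the filter only through FAK-R454 cells; 2.74% of all genes were called), and 4 of 6 passed the adjusted p at any fold (19.7% of all genes). In β-catenin ΔGSK against FAK KO cells it called 0 of 5 (12.1% of all genes), and 4 passed the adjusted p (58.1%). There 4 had an unadjusted p below 0.05 and limma-voom called 1, beside 1514 of 11915 genes. In KMF against FAK KO cells 0 of 5 were called (8.01%), and 3 passed the adjusted p (51.8%). There 4 had an unadjusted p below 0.05 and limma-voom called 0, beside 1013 of 11893 genes. The share of all genes at an unadjusted p below 0.05 was not computed, here or below. It is at least the share that passed the adjusted p, so these counts are not read as particular to the members.

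In FAK-WT against FAK-R454 cells limma called 0 of 6 members (1.44% of all genes), with 4 at an unadjusted p below 0.05. Limma-voom called 0 there, beside 195 of 11782 genes. Ptgs1, Ptgs2 and Ptgis passed the adjusted p there (7.82% of all genes did), with log2 fold changes of 0.28, 0.40 and 0.34 and limma adjusted p of 0.0222, 0.0213 and 0.0302. Each was lost without FAK-WT replicate 1 or 2 or either FAK-R454 sample, with limma adjusted p from 0.0674 up to 0.274. In FAK-WT against KMF cells 0 of 6 were called (5.93%), and 4 passed the adjusted p (41.6%). There 4 had an unadjusted p below 0.05 and limma-voom called 0, beside 726 of 11847 genes. In FAK-R454 against KMF cells 1 of 7 was called, Ptgds (6.77%), and 4 passed the adjusted p (43.6%). In β-catenin ΔGSK against KMF cells 2 of 6 were called, Ptgds and Ptges, both lower (13.1%), and 4 passed the adjusted p (56.9%). Against FAK-R454 cells 2 of 7 were called, Ptgds and Ptger4, both lower (11.4%), and 3 passed the adjusted p (49.0%). In the comparisons that involve KMF or β-catenin ΔGSK cells, 41.6% to 58.1% of all genes passed the adjusted p, so passing it at any fold is not particular to these members. The members called lower in β-catenin ΔGSK cells passed the filter only through the other line, and these counts are a description.

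In Ptgds, Ptges and Ptger4 every β-catenin ΔGSK sample lay below every sample of the other lines. Their calls there passed the filter only through the other line and are not read as support. These genes were picked from the same values, so the choice is a description. The bases before their starts are shown because β-catenin acts on DNA through TCF/LEF factors, whose motif was searched for in these windows. RefSeq (GRCm38.p6) windows of 250 bases before the start matched 8 of the 10 members, with none for Ptgis and Ptger1. The 3 printed windows are on the minus strand, written 5′ to 3′, with GC boxes (GGGCGG or CCGCCC) in capitals. For Ptgds the 157 bases outside any annotated exon are given (chr2:25469843-25469999), for Ptges chr2:30903298-30903547 and for Ptger4 chr15:5244188-5244437. The Ptgds and Ptges stretches lie inside the longer gene models of these genes.
Ptgds: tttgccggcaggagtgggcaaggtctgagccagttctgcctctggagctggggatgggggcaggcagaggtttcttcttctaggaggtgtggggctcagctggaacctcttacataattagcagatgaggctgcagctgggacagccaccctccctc
Ptges: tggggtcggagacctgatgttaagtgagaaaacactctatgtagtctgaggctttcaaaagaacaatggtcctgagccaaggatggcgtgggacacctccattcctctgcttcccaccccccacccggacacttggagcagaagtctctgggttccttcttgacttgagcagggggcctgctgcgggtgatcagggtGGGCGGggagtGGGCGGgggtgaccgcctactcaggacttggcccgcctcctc
Ptger4: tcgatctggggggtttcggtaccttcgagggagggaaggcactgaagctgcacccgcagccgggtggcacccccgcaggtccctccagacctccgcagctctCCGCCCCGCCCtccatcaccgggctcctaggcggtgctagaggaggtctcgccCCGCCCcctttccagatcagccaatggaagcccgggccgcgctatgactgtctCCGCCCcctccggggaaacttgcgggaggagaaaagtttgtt

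None of the 8 windows held the TCF/LEF motif (CTTTGAT or its reverse complement ATCAAAG), which 3.21% of 32851 mouse windows held. That these letters are missing from 250 bases says nothing about binding elsewhere. The GC box was found in 4 of 8 member windows (32.7% of all windows), at 4 places in Ptger4, of which a pair overlap by 1 base, and at 2 in Ptges. The AP-1 motif (TGANTCA, 6.75% of all windows) was found in that of Ptgds only, as TGACTCA from 35 to 29 bases before the start, in a stretch that is exonic in a longer Ptgds transcript and not printed.

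Of 21 further prostanoid genes listed, 15 exceeded a mean of 1 FPKM in at least 1 line. Among the phospholipases that release arachidonic acid, Pla2g5 was highest in β-catenin ΔGSK cells, at 65.5 FPKM against 19.4 in FAK KO, 15.3 in KMF, 18.0 in FAK-R454 and 8.05 in FAK-WT cells. Its log2 fold change in β-catenin ΔGSK cells was 1.75 over FAK KO (SE 0.11, limma adjusted p = 2.93e-06), 2.10 over KMF (SE 0.11, adjusted p = 6.52e-07) and 1.86 over FAK-R454 cells (SE 0.10, adjusted p = 3.13e-06). Slco2a1, which carries prostaglandins into cells, was lower there, at 1.01 FPKM in β-catenin ΔGSK against 4.04 in FAK KO cells (-1.90, SE 0.15, limma adjusted p = 1.33e-05). It was also lower there than in KMF (-2.15) and FAK-R454 cells (-1.56), with limma adjusted p of 1.68e-06 and 0.000140. Of the 14 listed genes tested in β-catenin ΔGSK against FAK KO cells, these were the only 2 called, beside 12.1% of all genes.

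The receptors Ptger3 and Ptgfr, for prostaglandins E2 and F2α, were low in the parental cells. Ptger3 averaged 1.69 FPKM in FAK-WT, 0.665 in FAK-R454, 0.0368 in KMF, 1.63 in FAK KO and 2.76 in β-catenin ΔGSK cells. This gene and the next 3 passed the filter only through the line where they are high, so their p-values are those of the fit without that filter, over all genes. Ptger3 was lower in KMF than in FAK KO cells by a log2 fold change of -3.66 (limma adjusted p = 3.61e-05) and lower in FAK-R454 than in FAK KO cells by -1.20 (0.0326). Ptgfr averaged 0.523 FPKM in KMF and 2.89 in FAK KO cells (-2.26, limma adjusted p = 8.56e-05). Fam213b, a prostamide and prostaglandin F synthase, was higher in the parental cells, at 3.02 FPKM in KMF and 0.662 in FAK KO cells (2.15, limma adjusted p = 0.00345). Pla2g4c was also higher in KMF than in FAK KO cells, at 1.34 against 0.345 FPKM (1.71, limma adjusted p = 0.00164). The filtered calls in KMF against FAK KO cells were 2 higher and 2 lower of 15 tested, beside 8.01% of all genes, with a median log2 fold change of -0.26 beside -0.05 over all genes. Since these 4 calls are those same genes, this count is a description.

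**Figure D3:**
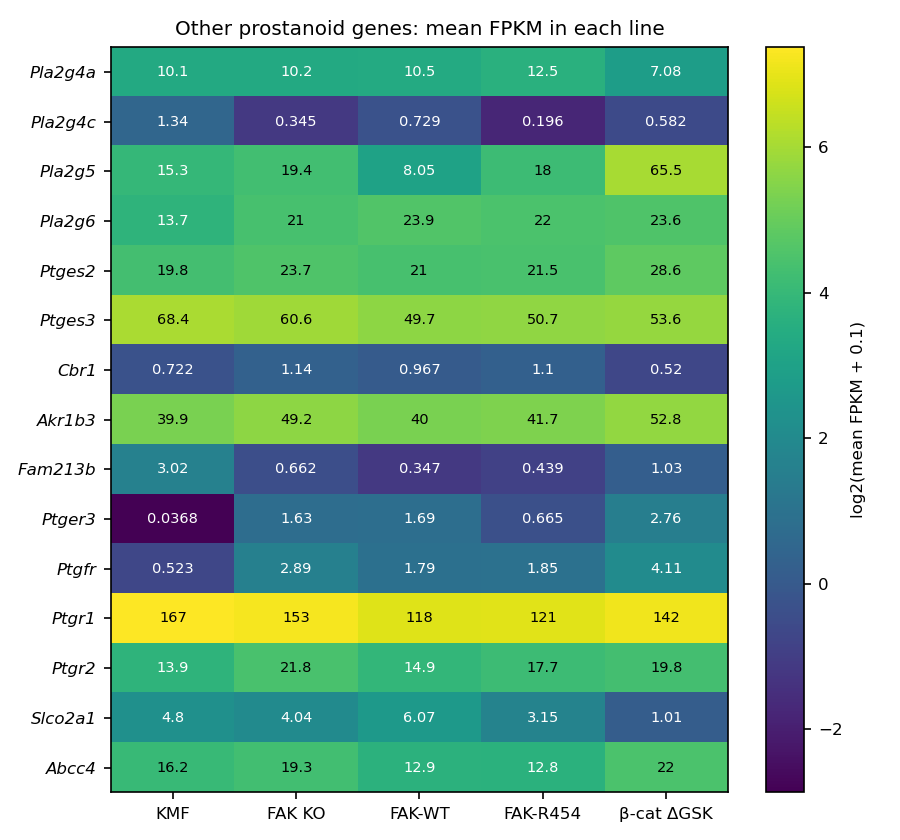
Mean FPKM (numbers) of the 15 further prostanoid genes above the filter in each line (columns), colored by log2(mean FPKM + 0.1). Pla2g5 is highest and Slco2a1 lowest in β-catenin ΔGSK cells, and Ptger3 and Ptgfr are lowest in KMF cells.

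Of 9 genes induced by cyclic AMP that were found once in the table, 7 were tested. Nr4a1, an orphan nuclear receptor, averaged 13.8 FPKM in FAK-WT, 10.9 in FAK-R454, 16.2 in KMF, 8.19 in FAK KO and 18.2 in β-catenin ΔGSK cells. It was the only 1 of the 7 called in β-catenin ΔGSK against FAK KO cells (1.15, SE 0.11, limma adjusted p = 3.14e-05), beside 12.1% of all genes. Nr4a1 was also the only call of this list in the 8 tested comparisons. In KMF cells it passed the adjusted p just under the fold (0.97, SE 0.14, limma adjusted p = 0.000702), and β-catenin ΔGSK did not pass against KMF cells (0.18, SE 0.12, adjusted p = 0.227). At any fold, 4 of the 7 passed the adjusted p as higher and 1 as lower (58.1% of all genes passed it) in β-catenin ΔGSK against FAK KO cells, the higher ones being Nr4a1, Dusp1 (0.85), Nr4a2 (0.65) and Sik1 (0.24) and the lower one Crem (-0.85). In KMF against FAK KO cells 2 passed it as higher, Nr4a1 and Sik1 (0.65), and 2 as lower, Crem (-0.89) and Fosb (-0.58), beside 51.8% of all genes. In FAK-R454 against FAK KO cells 1 of 7, Per1 (0.32), passed it, beside 19.7% of all genes, with a median log2 fold change of 0.19 beside -0.03 over all genes. Dusp1, Nr4a2, Sik1, Crem, Fosb and Per1 were named after their values were seen.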

How the data were processed

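RNA of 5-day tumorspheres was sequenced from 14 samples. The authors deposited 1 table of FPKM per gene with gene length and GRCm38 coordinates; the values come from their alignment (STAR 2.5 in the submitters' processing notes, TopHat2 in the published methods) to mm10. FPKM times length gave whole fragments for 100% of values under 2000 fragments (tolerance 0.01), from which depth was taken. Pairs of lines were compared with limma 3.58.1 (R 4.3.3; lmFit, eBayes with trend) on log2(FPKM + 0.1), over genes with a mean above 1 FPKM in at least 1 line and Benjamini-Hochberg adjustment over all of them. The test was also tried on simulated data, but the outcome is not reported here and nothing is read from it. Library strand is not marked. Same-numbered samples did not deviate together in every pair, so they were not treated as pairs. Alternatives were a pseudocount of 1, no filter, median-of-ratios scaling, 1 fit of all 5 lines, a replicate block, limma-voom on recovered fragments, chromosome centring and leaving out each sample. Genes named for their levels were every member, listed prostanoid and cyclic AMP genes that were called, the 5 genes most like Ptgds, marker genes, Ptk2 and Ctnnb1. Cyclic AMP genes that passed the adjusted p against FAK KO cells without a call were also named. Members and lists were chosen with earlier results of these data known. Pde4d (2 rows) and Adgre1 (no row matched) were left out of their lists. A comparison of Ptger1 with its locus is not reported here. The study's methods name 3 FAK-R454 samples, of which 2 were analysed here.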

Additional observations from a re-analysis of the deposited data

How the results depend on the processing

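Of 598 tested values of members under the alternatives, 514 kept their direction and their side of the adjusted p, 51 lost and 11 gained significance, and 22 changed sign. The cause was not tested in any of them.

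With a pseudocount of 1, members past the call numbered 1 in FAK-WT against FAK KO (untested), 0 in FAK-R454 against FAK KO, 1 in β-catenin ΔGSK against KMF and 1 against FAK-R454 cells. Calls over all genes fell too, from 324 to 145 of 11818 in FAK-R454 against FAK KO cells. In β-catenin ΔGSK cells they fell from 1562 to 1124 of 11902 against KMF and from 1357 to 934 of 11929 against FAK-R454 cells. With each chromosome centred the numbers were 1 in FAK-WT and 0 in FAK-R454 against FAK KO cells, with 312 of 11818 genes called in the latter. Limma-voom gave 1 in β-catenin ΔGSK against FAK KO cells (Ptges), with 1514 of 11915 genes called. Testing genes below the filter moved no count, since a call still needed a mean above 1 FPKM in the higher line; by adjusted p and fold alone, Ptger2 in KMF against FAK KO (-1.16) and Ptger4 in β-catenin ΔGSK against FAK KO (-1.59) and KMF cells (-2.14) would be added. With the replicate number as a block, FAK-R454 against FAK KO cells had 0, with 329 of 11818 genes called. The Ptger1 change there was 0.0171, Ptger4 in FAK-WT against FAK-R454 cells was -0.18 and Ptgis in FAK-R454 against KMF cells -0.022. The block moved no other count of calls of members. With no fold threshold, which by construction counts smaller changes, the numbers were 4 in β-catenin ΔGSK, 4 in FAK-R454 and 3 in KMF against FAK KO, 3 in FAK-WT against FAK-R454, 3 in β-catenin ΔGSK against FAK-R454, and 4 against KMF cells in each of the lines derived from FAK KO cells. The shares of all genes beside these numbers are those given above for the adjusted p at any fold. Leaving out 1 sample gave 1 to 2 in FAK-WT and 0 to 1 in β-catenin ΔGSK against FAK KO cells. In FAK-R454 against FAK KO cells, leaving out 1 FAK KO sample gave 0 to 1. The libraries are FAK-WT replicate 3, FAK KO replicates 1 and 3 and β-catenin ΔGSK replicate 3. Leaving out either FAK-R454 sample leaves 1 in that line, so no count is given. Over all genes, calls numbered 1392 to 1527 in β-catenin ΔGSK against FAK KO cells and 297 to 372 in FAK-R454 against FAK KO cells.

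Every value that changed sign belonged to a difference that had not passed the test. With median-of-ratios scaling, which moved the median of all genes in β-catenin ΔGSK against FAK KO cells by 0.11, Ptgs1 in KMF against FAK KO was 0.006, Ptgis in β-catenin ΔGSK against KMF 0.041, and Ptgs1 and Ptgis in β-catenin ΔGSK against FAK-R454 cells 0.0028 and 0.022. With each chromosome centred, Ptgs1 in KMF against FAK KO was 0.0002, Ptger4 in FAK-WT against FAK-R454 -0.075 and Ptgs2 in β-catenin ΔGSK against KMF cells 0.30. Leaving out 1 sample gave -0.15 to 0.0171 for Ptger1 in FAK-R454 and -0.10 to 0.0057 for Ptgs1 in KMF against FAK KO, -0.18 to 0.37 for Ptger4 in FAK-WT against FAK-R454, and, against KMF cells, -0.096 to 0.11 for Ptges in FAK-WT, -0.022 to 0.074 for Ptgis in FAK-R454, -0.16 to 0.079 for Ptgs2 and -0.079 to 0.031 for Ptgis in β-catenin ΔGSK.

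Low counts limit Ptger2, Hpgds, Hpgd and, in β-catenin ΔGSK cells, Ptgds and Ptger4. FAK-R454 has 2 samples, and leaving out either leaves a lone sample assumed to vary like the other line.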
